A study of Mus musculus with 677 samples.

Results

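The genes described here are 9 genes of apolipoprotein secretion and chylomicron assembly, Apob, Apoa1, Apoa4, Apoc2, Apoc3, Mttp, Mogat2, Dgat1 and Dgat2. They were taken by name from a single-cell expression table of the mouse intestinal epithelium, and all 9 were found among its 23420 genes. Each cell of C57BL/6 epithelium in that table is a library of its own. The libraries were taken as made by SMART-Seq2, a plate method that reads whole transcripts, although the labels also name a droplet kit. Wild-type (WT) mice are compared with Atg16l2-/- mice (KO), which lack a relative of the autophagy gene Atg16l1, and the study asked what that gene does in this tissue. A cell's name gives its run (1 or 2), its mouse code, M1 or M2 per genotype, and 1 of 9 cell types assigned by the authors. The codes were read as animals. WT M1 has 82 cells from run 1 and 86 from run 2, WT M2 87 and 80, KO M1 87 and 85, and KO M2 85 from each run. The labels used here name no age, sex, diet or stretch of intestine, nor whether an M code is the same animal in both runs.

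Absorptive enterocytes take up fatty acids and monoglyceride from digested fat, rebuild them into triglyceride and load that onto apolipoprotein B in the endoplasmic reticulum. The result is the chylomicron, which leaves the cell on its basal side and reaches the lymph. Mogat2 makes diglyceride from monoglyceride, Dgat1 and Dgat2 add the last fatty acid, and Mttp is the transfer protein that loads lipid onto ApoB. Apoa1, Apoa4, Apoc2 and Apoc3 encode smaller apolipoproteins carried on the particle surface, of which ApoC2 activates lipoprotein lipase and ApoC3 inhibits it.

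All values are in TPM, a gene's share of a cell's transcripts corrected for transcript length and scaled to a fixed total. Whether long and short transcripts were recovered alike was not tested, so an order of genes by level is an order in TPM only. The reads behind a value are unknown, and fewer transcripts of a gene cannot be told apart from more of all others. Atg16l2 itself was above 0 TPM in 38 WT cells (11.3% of them) and in 0 KO cells, which allows a share of up to 0.877%. Run 1 cells held more genes above 0 TPM than run 2 cells (medians of 6419 and 5653 in WT, 6604.5 and 5856.5 in KO). The Enterocyte label matched its markers. The summed mean TPM of 8 enterocyte genes such as Alpi, Sis and Fabp2 was 12172 to 16680 in the Enterocyte cells of the 4 animals and 225.8 to 362.2 in their Stem cells. Enterocyte cells numbered 58, of which 18 came from WT M1, 11 from WT M2, 12 from KO M1 and 17 from KO M2.

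In the RefSeq gene table Apoa1, Apoc3 and Apoa4 lie side by side on chromosome 9, followed by Apoa5. Dgat2 and Mogat2 are direct neighbours on chromosome 7, which also carries Apoc2 and the deleted gene Atg16l2. Apob is on chromosome 12, Mttp on 3 and Dgat1 on 15. Promoter windows (250 bases before to 50 after the start, GRCm38.p6) were at hand for 5 of the 9 genes, and the 80 bases upstream of all annotated exons are shown for 4 of them. Apob is shown as a gene past 10% of its mean Enterocyte level in Stem cells, and Apoc2, Apoa1 and Apoa4 as genes that reached that share later, although their Stem levels in TPM were above that of Apob. Capitals mark a match to 1 of 4 motifs searched on both strands. CAAAGTCCA and the CAAAGTC within it are letters bound by HNF4 factors. AGATAA is bound by factors of the Gata4 family, while TATAAA is the core of the TATA box.
Apob (chr12:7977549-7977628, + strand): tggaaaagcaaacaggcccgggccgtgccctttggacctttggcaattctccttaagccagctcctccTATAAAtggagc
Apoc2 (chr7:19677942-19678021, - strand): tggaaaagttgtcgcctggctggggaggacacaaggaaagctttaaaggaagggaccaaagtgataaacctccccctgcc
Apoa1 (chr9:46228500-46228579, + strand): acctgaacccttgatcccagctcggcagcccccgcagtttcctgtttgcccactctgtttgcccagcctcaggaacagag
Apoa4 (chr9:46240616-46240695, + strand): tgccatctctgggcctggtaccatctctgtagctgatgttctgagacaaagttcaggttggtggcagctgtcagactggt
The TATAAA of Apob was the only match in the whole windows of the 5 genes. Among 32851 mouse promoter windows of the same length, 13.6% held TATAAA, 11.2% AGATAA, 4.44% CAAAGTC and 0.475% CAAAGTCCA. No match says only that these letters are not in the window. Other spellings of such sites were not searched.

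The mean level of all 9 genes was highest in Enterocyte cells, and for 8 of 9 the next was Enterocyte.prog.late, the later of the 2 progenitor stages. Apoa1 was the most abundant, at 7246 ± 2726 TPM in Enterocyte cells (SD, n = 4 animals), followed by Apoc3 at 1114 ± 986.5 TPM. Mttp reached 868.7 ± 76.26 TPM, Apoa4 844.1 ± 225.98, Mogat2 678.6 ± 121.1, Dgat1 512.5 ± 98.27 and Apoc2 492.6 ± 351.8 TPM. Dgat2 stood at 166.9 ± 20.12 and Apob, which encodes the scaffold of the particle, at 88.59 ± 11.88 TPM, the lowest of the 9. The SDs of Mttp, Dgat2 and Apob were a small part of their means, whereas that of Apoc3 was nearly as large as its mean. Together the 9 genes made up a median of 0.477% of a cell's TPM in the 58 Enterocyte cells, with a range of 0.111% to 8.58%. In the 619 other cells the median was 0.0366%.

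**Figure D1:**
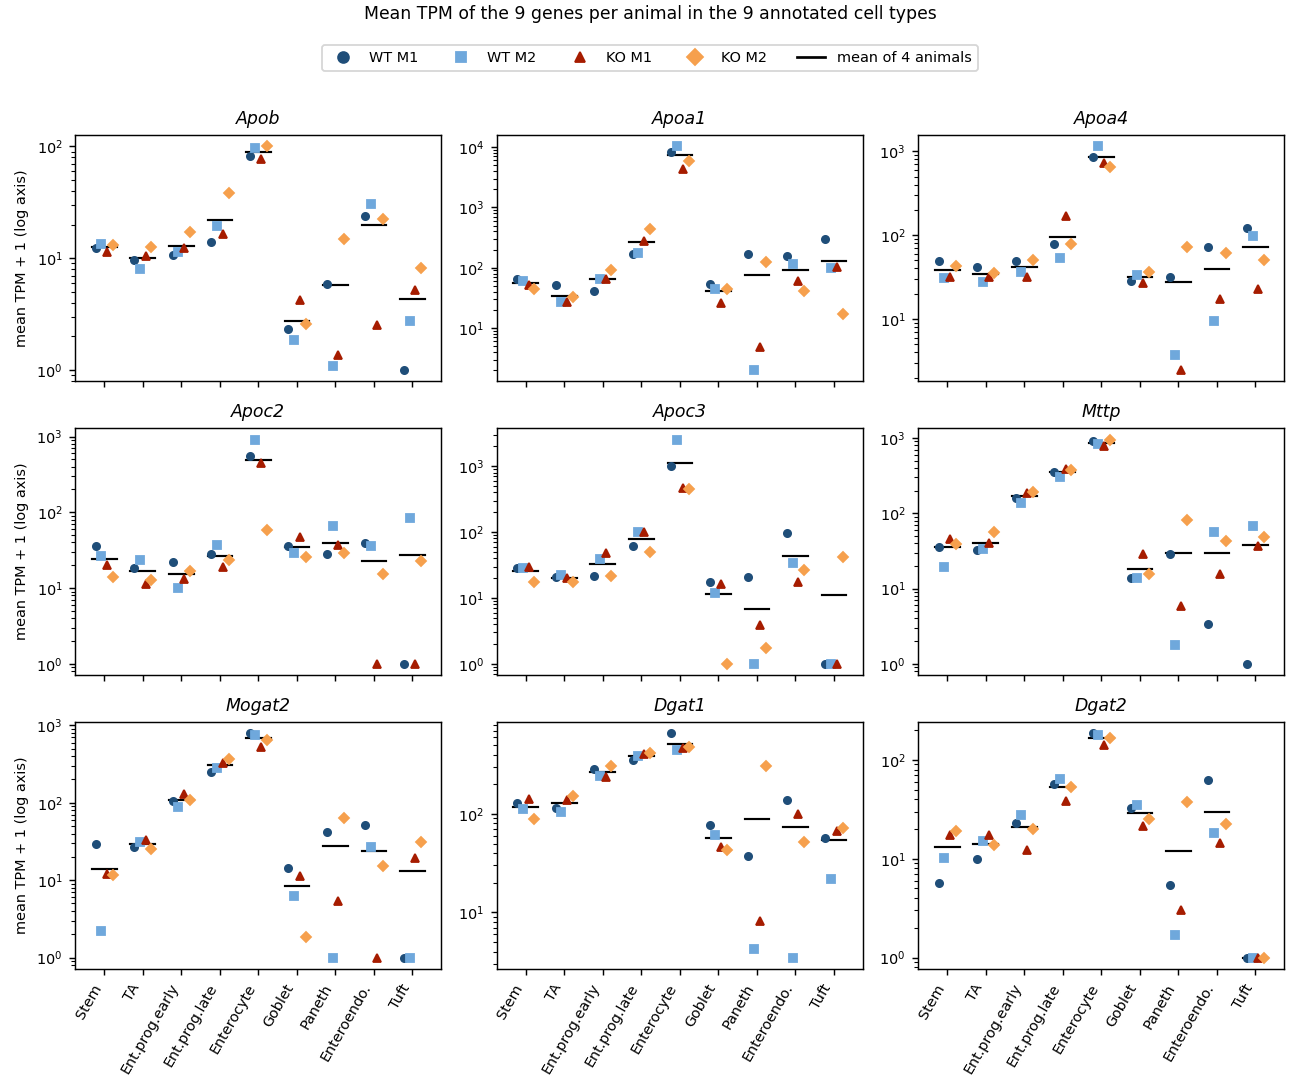
Mean TPM + 1 of each gene (log axis) in the 9 annotated cell types, with a symbol per animal and a black line at the mean of 4 animals. All 9 genes are highest in Enterocyte cells. The Mttp, Mogat2 and Dgat1 panels climb stage by stage from TA cells, whereas Apoa1 steps from 265.1 to 7246 TPM between the last 2 stages.

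The course along the lineage was described by the means of the 4 animals at 5 stages, Stem, TA (transit amplifying), Enterocyte.prog.early, Enterocyte.prog.late and Enterocyte. No test was made, because the authors may have used such genes to name the cells. Between Stem and TA none of the 9 genes separated, and all 5 apolipoproteins were lower in TA than in Stem in 4 of 4 animals. Among 6689 genes kept, 9.45% had all 4 TA animals above all Stem animals. How many of all genes were lower in TA in 4 of 4 animals was not counted. At the next step, TA to early progenitor, 3 genes separated upward against 13.1% of all genes, and all of them were lipid loading or synthesis genes. From early to late progenitor 7 of 9 separated upward (8.87% of all genes), and from late progenitor to Enterocyte all 9 did (6.64%). Over the whole path from Stem to Enterocyte all 9 were higher without overlap, as were 19.8% of all genes.

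Mttp, the lipid transfer protein, came up early. In TA cells it stood at 31.90 and 32.33 TPM in WT M1 and WT M2, and at 39.36 and 55.78 TPM in the KO animals. In the early progenitors of the same animals it was 156.4, 136.4, 187.04 and 189.7 TPM, 4.2-fold higher in the means with no overlap. Mogat2 went from 24.50 to 31.84 TPM over the 4 animals in TA to 87.67 to 130.6 TPM in early progenitors (3.83-fold). Dgat1 was well expressed from the start, at 88.50 to 140.3 TPM in Stem cells, and went up 2.1-fold at the same step. Dgat2, the second acyltransferase, lagged behind: its animals overlapped between TA and early progenitors (8.924 to 16.56 and 11.20 to 26.49 TPM) and separated at the late progenitor (37.02 to 63.74 TPM). Mttp and Mogat2 were higher again at each later step, 2.11-fold and 2.84-fold in the late progenitor and a further 2.46-fold and 2.22-fold in the Enterocyte. Dgat1 gained 1.31-fold at the last step, the smallest gain of the 9.

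The surface apolipoproteins had their largest step at the end. Apoa1 measured 165.1 and 176.2 TPM in the late progenitors of WT M1 and WT M2 and 273.96 and 445.0 TPM in those of KO M1 and KO M2. In Enterocyte cells it measured 8339, 10487, 4303 and 5856 TPM in the same order, 27.3-fold higher in the means (13.2-fold to 59.5-fold in single animals). Apoc2 was 19.1-fold higher at that step (2.56-fold to 25.5-fold), Apoc3 14.4-fold (4.61-fold to 25.6-fold) and Apoa4 9.05-fold (4.3-fold to 22.3-fold). In means Apob behaved differently from the other apolipoproteins, at 10.46 to 12.49 TPM in Stem cells and 12.92 to 37.38 in late progenitors. Its Enterocyte means were 75.65 to 100.3 TPM, a last step of 4.2-fold. In medians over all cells of a type the contrast with Apoa4 was smaller. By that measure Apob went from 17.07 to 62.95 TPM at the last step and Apoa4 from 47.92 to 203.2 TPM. Apoc3 went from 35.55 to 243.5 TPM, Apoa1 from 117.45 to 1969 TPM and Apoc2 from 0 to 21.275 TPM. From Stem to Enterocyte the folds of means ran from 4.39 for Dgat1 and 7.65 for Apob to 133.67 for Apoa1.

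Counting onset as the first stage whose level reached 10% of the Enterocyte level put the genes in an order. Apob (13.1%) and Dgat1 (22.8%) were past that mark in Stem cells, in 4 of 4 animals each. Mttp (19.3%), Mogat2 (15.8%) and Dgat2 (11.8%) passed it in early progenitors, Mttp and Mogat2 in 4 of 4 animals and Dgat2 in 2. Apoa4 (11%) passed it in late progenitors, again in 2 of 4 animals. Apoc3, Apoc2 and Apoa1 were at 6.93%, 5.24% and 3.66% in late progenitors and passed it only as Enterocyte cells, in 2, 3 and 4 of 4 animals. With medians of cells in place of means, Apoa4 was past the mark in Stem cells and Apoc3 and Dgat2 in late progenitors, so those 3 places depend on the use of means. Dgat2 was past it in Stem cells with KO alone or run 2 alone, and Apoc3 in late progenitors with KO alone. Apoa4 was past it only as Enterocyte with WT alone or run 2 alone. At a mark of 50% only Dgat1 was reached before the Enterocyte stage, in early progenitors (52%).

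**Figure D2:**
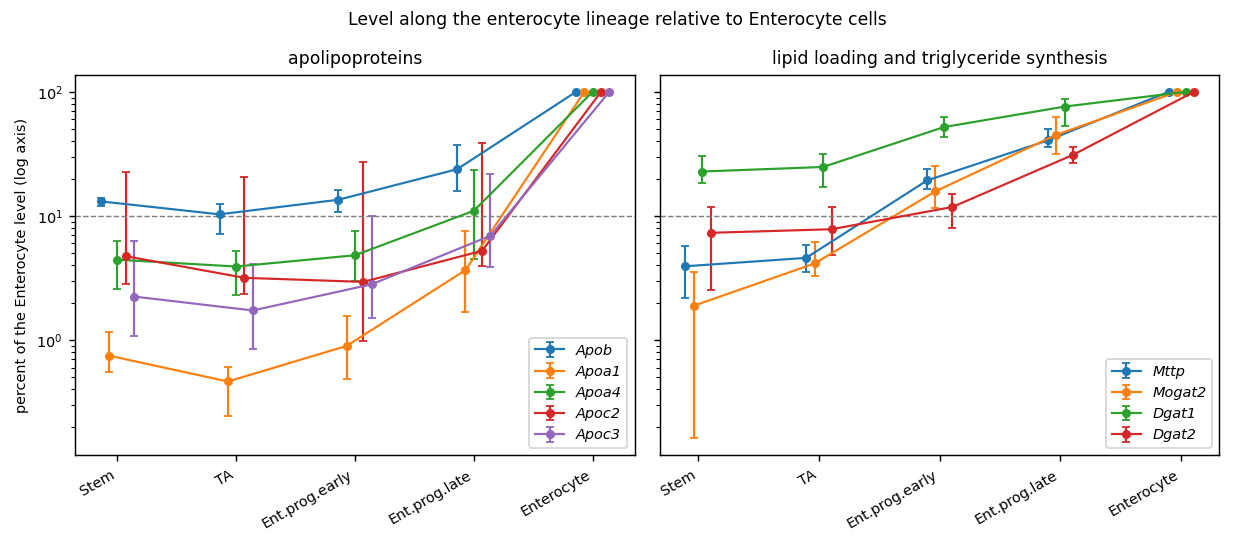
Level of each gene at 5 stages as a percent of its Enterocyte level (log axis), with the apolipoproteins on the left and the loading and synthesis genes on the right. Points are the means of 4 animals, bars run from the lowest to the highest animal, and the dashed line marks 10%. Mttp and Mogat2 cross the line in early progenitors, while Apoa1 is at 3.66% in late progenitors.

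Outside the absorptive lineage the mean levels were below those of Enterocyte cells and their order mostly not resolved. Some were above those of progenitor stages. Apob averaged 18.87 TPM in enteroendocrine cells (1.526 to 29.61 over the animals), against 21.11 in late and 11.95 in early progenitors. Apoa1 averaged 130.2 TPM in the 7 Tuft cells and 64.96 TPM in early progenitors. Of the 8 neighbouring pairs in the order of the 9 cell types, the 4 animals did not overlap in 3 pairs for Mttp, Mogat2 and Dgat1, in 2 for Dgat2, in 1 for Apob, Apoa1, Apoa4 and Apoc3, and in none for Apoc2. Apob, Apoc3 and Dgat1 were lower in Goblet cells than in Stem cells with no overlap and Dgat2 was higher, so that 3 of the 9 lay below and 1 above, beside 22.6% and 12.6% of 6698 genes kept, of which Apob is not one. Apob stood at 0.8427 to 3.221 TPM in the Goblet cells of the 4 animals against 10.46 to 12.49 TPM in Stem cells. It was above 0 in 32 of 70 Goblet cells (45.7%) and 77 of 96 Stem cells (80.2%). Apoc3 was at 0 to 16.42 TPM in Goblet cells and 16.58 to 28.83 TPM in Stem cells, so that its ranges nearly met. Dgat1 was at 42.13 to 77.05 TPM in Goblet cells against 88.50 to 140.3 TPM in Stem cells. Dgat2 went the other way, at 20.58 to 34.33 TPM in Goblet cells and 4.714 to 18.29 TPM in Stem cells, again with no overlap.

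Apoc2 stood apart from the other apolipoproteins in Paneth cells, though not in all secretory cells. It was above 0 TPM in 21 of 22 Paneth cells (95.5%) with a median of 34.56 TPM, and in 35 of 70 Goblet cells (50%). In enteroendocrine cells the share was 7 of 32 (21.9%), in Stem cells 26 of 96 (27.1%) and even in Enterocyte cells 32 of 58 (55.2%). The means of the Paneth cells were 26.82 and 64.11 TPM in WT M1 and WT M2 and 35.88 and 28.08 TPM in KO M1 and KO M2, above the Stem cells of 3 of the 4 animals. Over the 4 animals the Paneth and Stem ranges overlapped (26.82 to 64.11 and 13.05 to 35.25 TPM). The Paneth cells numbered only 3 to 9 per animal. The other apolipoproteins had lower medians in Paneth cells. Apoa1 was above 0 in 13 of 22 Paneth cells with a median of 2.015 TPM, Apob in 11 of 22 and Apoc3 in 7 of 22. Apoa4 was above 0 in 17 of 22 (77.3%) with a median of 2.3 TPM. In Goblet cells its share was 55 of 70 (78.6%), higher than that of Apoc2, and in Stem cells 75 of 96 (78.1%). Apoa1 was above 0 in 57.1% to 68.8% of cells in Stem, TA, early progenitor, Goblet, Paneth, enteroendocrine and Tuft cells alike, so a reading above 0 of this gene does not set these types apart.

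Single Enterocyte cells differed far more in the 4 surface apolipoproteins than in Mttp, Dgat1 and Mogat2. Apoa1 ran from 13.98 TPM in the lowest of the 58 cells to a median of 1969 and a highest of 62730 TPM. Apoa4 ran from 3.70 through 203.2 to 8493 TPM, and Apoc3 from 0 (5 cells) through 243.5 to 13802 TPM. Apoc2 was at 0 in 26 of 58 cells and reached 7356 TPM. By contrast Mttp lay between 292.1 and 2114 TPM, Dgat1 between 123.4 and 1847 and Mogat2 between 99.56 and 1939 TPM, with no cell at 0. The coefficient of variation (CV, the SD over cells divided by their mean) was 1.74 for Apoa1, 1.95 for Apoa4, 3.0 for Apoc2 and 2.72 for Apoc3. It was 0.516 for Mttp, 0.563 for Dgat1 and 0.568 for Mogat2, below the median of 0.71 over 2335 genes with a mean of at least 50 TPM in these cells. Apob (0.908) and Dgat2 (0.889) lay between. Of those 2335 genes, 97.5% to 99.1% had a lower CV than the 4 surface apolipoproteins. On the log2 scale 4 of the 9 genes exceeded the median SD in place of 6, and Apoa1 lay above 85.8% of genes.

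**Figure D3:**
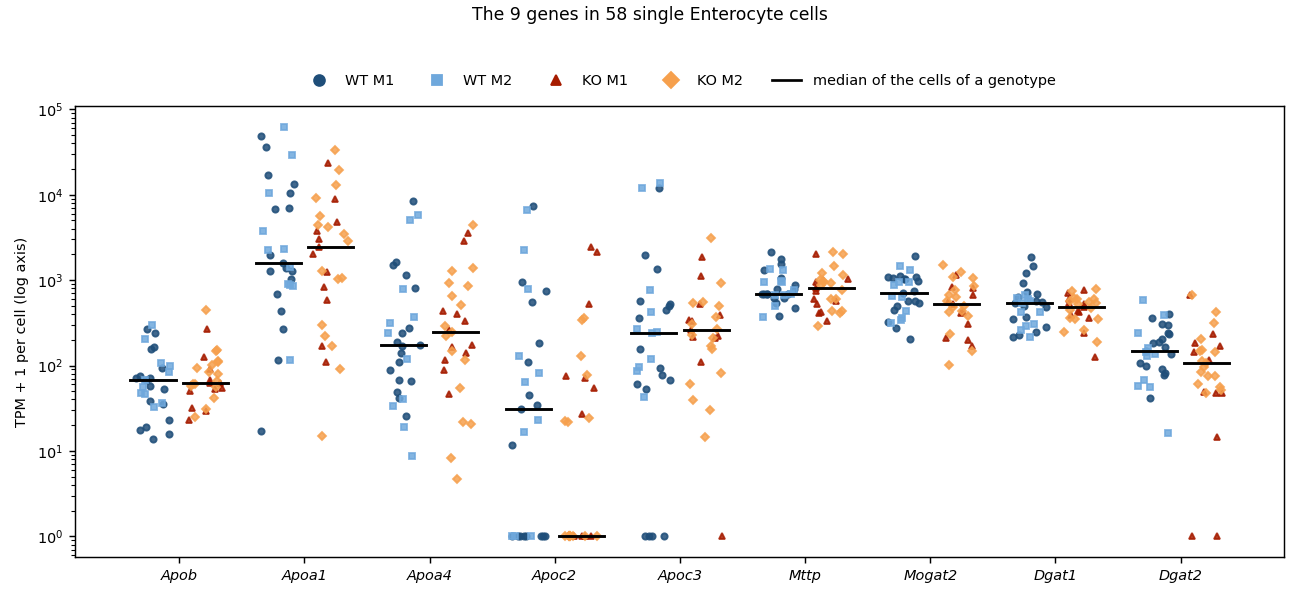
TPM + 1 (log axis) of the 9 genes in each of the 58 Enterocyte cells, WT on the left and KO on the right of each gene, with a symbol per animal and a line at the median of a genotype. Apoa1 spans 13.98 to 62730 TPM, Mttp 292.1 to 2114 TPM. The points of Apoc2 at the foot are cells with 0 TPM.

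A small number of cells held much of the apolipoprotein signal. The 6 highest cells carried 56.4% of all Apoa1 TPM in the 58 cells, 63.2% of Apoa4, 75.3% of Apoc3 and 82.9% of Apoc2, against 22.7% for Mttp and 21.7% for Mogat2. They were largely shared between genes, since only 9 cells made up the top 6 of the 5 apolipoproteins, and 7 of these were in the top 6 of at least 3 of them. Those 7 cells were 2 of WT M1, 2 of WT M2, 2 of KO M1 and 1 of KO M2. The cell with the most Apoa1, a run 1 cell of WT M2, had 62730.11 TPM of Apoa1, 5004.69 of Apoa4 and 11871.51 of Apoc3. A run 2 cell of WT M1 had 49255.08 TPM of Apoa1, 8492.73 of Apoa4, 7355.56 of Apoc2 and 11932.96 of Apoc3, yet only 206.01 of Mogat2 and 69.98 of Apob. The number of genes above 0 TPM in the 7 cells ran from 3662 to 7920.

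Across the 58 cells the 9 genes were all positively correlated. Spearman's rho had a median of 0.605 over the 10 pairs of apolipoproteins (0.351 to 0.695), 0.509 over the 6 pairs of loading and synthesis genes and 0.437 over the 20 pairs between these groups. By this measure the highest pairs crossed the groups, with 0.733 for Apob and Mttp, the particle scaffold and its loading protein, and 0.730 for Apoa1 and Mttp. Apoa1 and its neighbours on the chromosome, Apoc3 and Apoa4, were at 0.661 and 0.687, and the lowest pair was Apoc2 with Mogat2 at 0.224. These values are descriptions, since cells share 4 animals, 2 runs and a fixed TPM total. After the mean of each combination of run and animal was removed, Pearson's r on log2 values had a median of 0.447 over the 36 pairs (0.135 to 0.666). There the highest pair was Apob with Apoa1 (0.666), within the apolipoproteins, and Apob with Mttp was at 0.658, so which pair is highest depends on the measure.

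**Figure D4:**
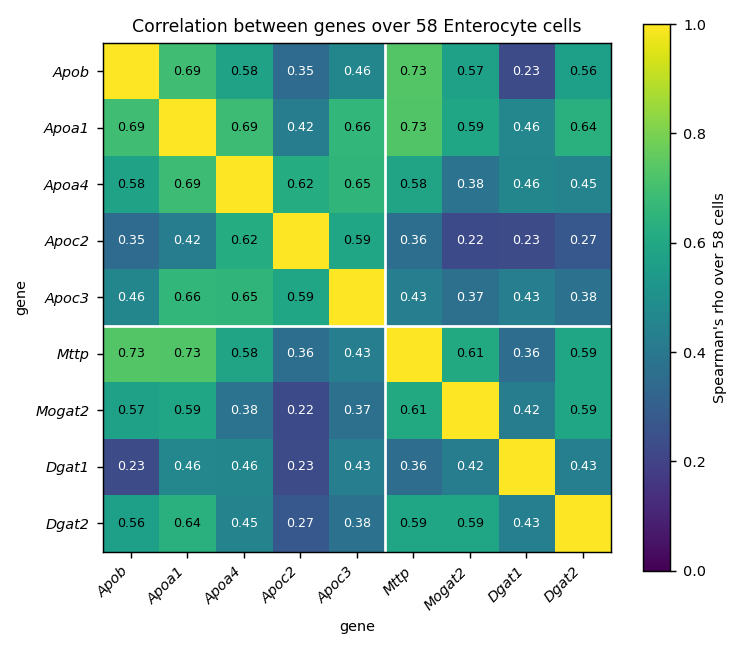
Spearman's rho between each pair of the 9 genes over the 58 Enterocyte cells, as colour and number, with white lines between the apolipoproteins and the loading and synthesis genes. All 36 pairs are above 0, from 0.224 (Apoc2 and Mogat2) to 0.733 (Apob and Mttp).

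Position along the gut and the villus was looked at through lists of other genes, and mean log2 levels for both ends of the gut were positively related to the 9 genes. The mean log2 level of 13 genes known from the proximal small intestine, such as Rbp2 and Adh6a, had a rho of 0.749 with Mttp, 0.705 with Apoa1 and 0.384 with Apoc2, the lowest of the 9. The mean of 12 genes known from the distal small intestine was positively related too, with rho from 0.331 (Mttp) to 0.561 (Apoa1). Of this list Fabp6, Cubn, Tmigd1, Slc10a2 and Fgf15 were above 0 in only 4 to 12 of the 58 cells. Their rho with Apoa1 ran from 0.0576 (Fabp6) to 0.631 (Cubn). The rest, such as Slc51a and Clec2h, were above 0 in 33 to 58 cells, with rho of 0.289 to 0.481 with Apoa1. For 5 villus bottom genes such as Reg3b and Nlrp6 rho was -0.224 to 0.0301. Of 6 villus tip genes only Creb3l3, also on the proximal list, was above 0 in most cells (52 of 58, rho of 0.498 with Apoa1), and the other 5 were above 0 in 3 to 17 cells with rho of -0.145 to 0.189, so no value is given for that list. Genes most like the mean of the 9 across these cells were Scp2 (r = 0.808), which encodes a sterol carrier protein, Fabp2 (0.798), Acsl5 (0.796), Cyp2b10 and Treh (0.769 each) and Gde1 (0.751). Over the 24 profiles of 4 animals and 6 cell types the closest included H2-Q2 (r = 0.974), Slc9a3r1 (0.969), H2-Q1 (0.966), Slc5a11 (0.963) and Ggt1 (0.961). H2-Q1 and H2-Q2 are class I histocompatibility genes with close copies, so their values are uncertain.

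Many other genes of the pathway were higher in Enterocyte cells too. Of 40 listed genes, 32 of them above the filter on low values, 26 were above their Stem level in the Enterocyte cells of all 4 animals with no overlap, 5 were below and 9 overlapped, against 19.8% above and 27.5% below among all genes kept. Above were 10 of 12 genes of fatty acid and sterol handling and 8 of 9 of particle maturation, ER exit and lipid droplets. Fabp1, a cytosolic fatty acid carrier, was at 50.22 TPM in Stem and 5069 in Enterocyte cells, Tm6sf2 at 39.55 and 770.3, and P4hb, the partner subunit of Mttp, at 409.1 and 2236 TPM. Among transcription factors Creb3l3, known to drive apolipoprotein genes, was at 4.447 TPM in Stem cells and 4.70 in early progenitors, 57.26 in late progenitors and 190.1 in Enterocyte cells. Hnf4g was higher in Enterocyte than in Stem cells (164.8 and 14.46 TPM) and Hnf4a lower (74.01 and 194.3 TPM), both without overlap. Apoe, a secreted apolipoprotein, was below its Stem level (8.701 and 1.057 TPM), as was Agpat6 (36.55 and 9.987 TPM), whereas Agpat9, another glycerol phosphate acyltransferase, was above (8.771 and 69.04 TPM). Apoa5, next to Apoa4 on the chromosome, was listed at 0 in all 5 stages.

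KO was compared with WT in the 6 cell types where each animal had 10 cells or more. Mean TPM per animal and cell type entered limma on the log2(TPM + 1) scale, with 2 animals against 2 and Benjamini-Hochberg adjustment over all genes kept. The labels do not say that the codes are separate animals, so p-values speak only for these samples. limma draws the spread of each gene towards that of genes of like level. SE and p are therefore not those of a gene's own values alone. None of the 9 genes passed the adjusted threshold of 0.05 in any cell type or in their average. In the average over 6 types 0 of 6714 genes passed (0.0%), with 7.6% at an unadjusted p under 0.05. The 9 genes had a median log2 difference of -0.053, and that of all genes was 0.026. Apoc2 had the smallest adjusted p in limma, 0.52, with a difference of -0.72 ± 0.22 (SE) and both KO animals below both WT animals. Mttp came next, at 0.41 ± 0.14 with both KO animals above (limma adjusted p = 0.572). Apob was also higher in both, so that 2 of the 9 genes lay above and 1 below, beside 22% and 17.1% of all genes. Of the 9 genes 2 had an unadjusted p under 0.05.

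In Enterocyte cells all 9 differences were below 0, and those of the apolipoproteins other than Apob were the largest. Apoc3 averaged 1007 and 2541 TPM in WT M1 and WT M2 against 462.7 and 445.0 TPM in KO M1 and KO M2. Apoa1, as given above, was 8339 and 10487 against 4303 and 5856 TPM, and Apoc2 556.0 and 911.5 against 445.7 and 57.24 TPM. In all 3 genes both KO animals lay below both WT animals, as also in Apoa4 (846.0 and 1161 against 717.1 and 652.3 TPM), Mogat2 and Dgat2. That makes 6 of 9 genes, beside 21.6% of the 5854 genes tested, while 0 of 9 lay above, beside 16.3%. The count of 6 depended on single cells: with each of the 58 cells left out in turn, an alternative chosen after the data were seen, it ran from 3 to 7, and 5 of the cells changed it. Without 1 run 2 cell of WT M1 the WT M1 means were 396.2 TPM for Apoa4, 156.01 for Apoc2 and 364.7 for Apoc3, and these 3 genes no longer separated. Without 1 run 1 cell of WT M2 Apoa4, Apoc2 and Dgat2 did not separate, without another Apoa1 did not, and without yet another Dgat2 did not. Without 1 run 1 cell of KO M2 Apob separated as well. With the highest cell of every animal left out for each gene, 4 of 9 separated (Apoa1, Apoc3, Mogat2 and Dgat2). The log2 differences were -1.82 ± 0.35 (SE) for Apoc3, -0.90 ± 0.18 for Apoa1, -2.14 ± 0.73 for Apoc2, -0.53 ± 0.20 for Apoa4 and -0.41 ± 0.19 for Mogat2. Their adjusted p in limma was 0.159, 0.194, 0.477, 0.485 and 0.608, while 2 of 5854 genes passed (0.0342%). At an unadjusted p under 0.05 there were 4 of the 9 and 8.23% of all genes. Dgat2 differed by -0.26 ± 0.23, Dgat1 by -0.20 ± 0.22, Apob by -0.028 ± 0.28 and Mttp by -0.0057 ± 0.18. The median of the 9 was -0.41 and that of all genes -0.036. Leaving out 1 animal brought 1 gene past the threshold in 3 of 4 cases, a different gene each time: Apoc2 without KO M1 (-3.61, limma adjusted p = 0.000369), Apoa1 without KO M2 (-1.12, 0.00682) and Apoc3 without WT M1 (-2.48, 0.000288), where the lone sample is assumed to vary like the other group.

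Medians over cells gave another picture than means. The median Apoa1 was 1493 and 2265 TPM in the WT M1 and WT M2 cells and 2209 and 2874 TPM in the KO M1 and KO M2 cells. For Apoc3 the WT medians were 123.1 and 248.1 TPM and the KO medians 293.98 and 228.3, and for Apoa4 170.7 and 236.9 against 217.9 and 245.5 TPM. For each of these 3 genes the medians of the WT and KO animals overlapped. With log2 values averaged over cells Apoc3 differed by 0.16 and Apoa4 by 0.14, the opposite sign of the means, while Apoa1 stayed below 0 (-0.49). Apoc2 was also below 0 on that scale (-1.32), as was Mogat2 (-0.47).

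The runs of 1 animal differed widely. Apoa1 in WT M1 was 2350 TPM in run 1 and 12149 in run 2, whereas in WT M2 it was 17899 in run 1 and 1592 in run 2. KO M1 had 2035 and 5437 TPM and KO M2 14665 and 2185 TPM. Run 2 was the higher run in both M1 animals and run 1 in both M2 animals, with 4 to 12 cells per animal and run. The 7 cells with the highest apolipoproteins came from these same combinations. Within run 1 the KO minus WT difference of Apoa1 was -0.25 and within run 2 -0.35, both smaller than the -0.90 of the pooled means. Treating the 8 groups of run and animal as separate units, with run as a covariate, it was -0.30, that of Apoc3 -0.79 and that of Apoa4 0.20. Other cell types' markers also differed between these groups of cells: 8 Goblet markers summed to 2511 TPM in KO M2 and to 62.23 to 105.4 TPM in the others, and 7 Paneth markers to 3910 TPM in KO M1 and 551.8 in KO M2, with 154.8 and 100.1 TPM in the WT animals. Sums of 6 Stem markers (18.07 and 11.89 TPM in the WT animals, 355.4 and 36.10 in the KO animals) and of 6 T cell markers (0.902 and 1.58, 39.23 and 25.23 TPM) were higher in both KO animals. Their part in the differences was not tested.

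**Figure D5:**
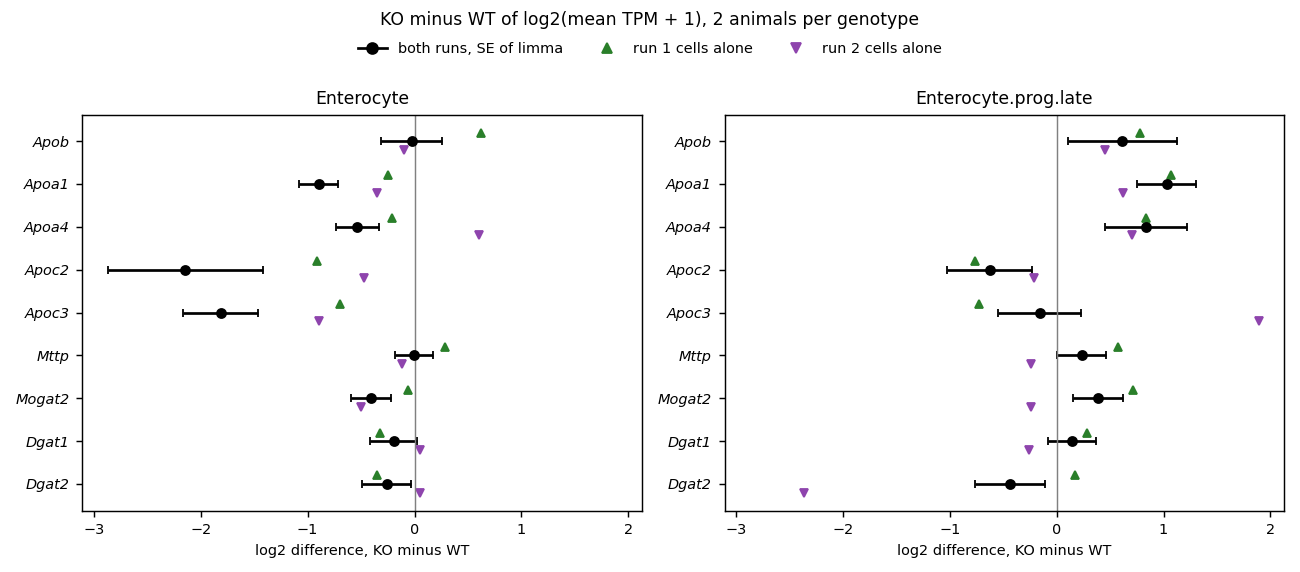
Log2 difference of KO minus WT in Enterocyte cells (left) and late progenitors (right) for the 9 genes, black points for both runs with the SE of limma, triangles for each run alone. In Enterocyte cells the pooled values of Apoa1 (-0.90) and Apoc3 (-1.82) lie further from 0 than either run. In late progenitors Apoa1 is at 1.03 and Dgat2 at -0.44.

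In late progenitors the direction was mixed and more often upward. Apoa1 (273.96 and 445.0 TPM in KO against 165.1 and 176.2 in WT) had a log2 difference of 1.03 ± 0.28 (SE) and the smallest adjusted p of the 9 in limma, 0.544. Apoa4 (166.8 and 77.38 against 76.57 and 52.16 TPM) differed by 0.84 ± 0.38, Apob by 0.61 ± 0.51, Mogat2 by 0.39 ± 0.23, Mttp by 0.24 ± 0.23 and Dgat1 by 0.15 ± 0.22. Apoc3 differed by -0.16 ± 0.39, Dgat2 by -0.44 ± 0.33 and Apoc2 by -0.63 ± 0.40. Both KO animals were above both WT animals in 5 of the 9 genes and below in 2, beside 14.5% and 19.7% of the 6120 genes tested, of which 5 (0.0817%) passed the adjusted threshold. Apoa1 was the 1 gene of the 9 with an unadjusted p under 0.05, beside 5.6% of all genes. Within run 1 Apoa1 was 260.6 and 197.3 TPM in WT M1 and WT M2, and 301.1 and 751.5 TPM in KO M1 and KO M2. Within run 2 it was 110.6 and 123.4 against 233.2 and 138.6 TPM, so both KO animals lay above both WT animals in each run. Without the run 1 cells of KO M2 the difference of Apoa1 was 0.19. Run 1 was the higher run in every animal, so that setting leaves KO M2 with its lower run only. Leaving out KO M1 brought Apoa1 past the threshold (1.38, limma adjusted p = 0.000125) and leaving out KO M2 Apoa4 (1.39, 0.00764). In the late progenitors of KO M2 the 7 Paneth markers summed to 8965 TPM over both runs, against 70.08 to 663.6 TPM in the other animals. The 8 enterocyte markers summed to 1769 and 2658 TPM in the WT and 3082 and 3247 TPM in the KO late progenitors. Their part in the result was not tested.

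In the 4 remaining comparisons no gene of the 9 passed either. In early progenitors 0 of 6565 genes passed (0.0%), and both KO animals lay above both WT animals in Apob, Mttp and Mogat2 and below in Dgat2, beside 22.7% and 13.5% of all genes. None of the 9 had an unadjusted p under 0.05, beside 5.51%. The Mttp values, given above, were 156.4 and 136.4 TPM for WT and 187.04 and 189.7 for KO. In TA cells 8 of the 9 genes were kept, since Apob was under the minimum of 10 TPM, and 4 of 6791 genes passed (0.0589%). Mttp and Dgat1 were above and Apoc2 and Apoc3 below in both KO animals, beside 26.7% and 13.3% of all genes, and 2 genes had an unadjusted p under 0.05, beside 7.97%. In Stem cells 0 of 6764 passed (0.0%), where the WT animals had 4.714 and 9.270 TPM of Dgat2 and the KO animals 16.56 and 18.29. There Dgat2 and Mttp were above and Apoa1 and Apoc2 below, beside 18.2% and 15.8% of all genes, and 0 of the 9 had an unadjusted p under 0.05, beside 5.5%. In Goblet cells 7 genes were kept and 1 of 6208 genes passed (0.0161%). Mttp was above and Apoa1, Dgat1 and Dgat2 below, beside 15.7% and 20.1% of all genes, and 0 of the 7 had an unadjusted p under 0.05, beside 6.07%. Mttp was thus higher in both KO animals than in both WT animals in 5 of the 6 cell types, all but Enterocyte. In Goblet cells its values nearly met, at 12.69 and 12.65 TPM in WT against 28.20 and 14.60 TPM in KO. Apoc2 was lower in both KO animals than in both WT animals in Stem, TA, late progenitor and Enterocyte cells, but overlapped in early progenitors and Goblet cells. All 6 types come from the same 4 animals, so they are not independent repeats. How many of all genes separate the same way in as many types was not counted.

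The log2 step from Stem to Enterocyte was smaller in KO for 8 of 9 genes, with a median difference of -0.69 against 0.0017 over all genes. None of the 9 passed in limma, with a smallest adjusted p of 0.585 for Apoc3, and 2 of 6626 genes did (0.0302%). Both KO animals were below both WT animals in 3 of the 9 (Apoc3, Mttp and Dgat2) and above in 0, beside 18% of all genes each. At an unadjusted p under 0.05 there were 2 of the 9 and 7.06% of all genes. A moderated F test in limma of whether the genotype difference varied over the 6 cell types gave a smallest adjusted p of 0.584 (Apoa1 and Dgat2), with 1 of 6714 genes passing. Of the 40 other pathway genes, those above the filter in each comparison, none passed in any of them. In Enterocyte cells the 3 with the smallest p were Fabp2 (-0.63 ± 0.16 SE, limma adjusted p = 0.313), Npc1l1 (-0.75 ± 0.22, 0.384) and Plin3 (-0.69 ± 0.21, 0.398). In late progenitors Creb3l3 was higher in both KO animals (1.83 ± 0.36 SE, limma adjusted p = 0.141), followed by Slc27a4 (1.02 ± 0.38, 0.801) and Fabp1 (0.79 ± 0.37, 0.888). In the average of 6 types they were Fabp1 (0.78 ± 0.18 SE, limma adjusted p = 0.499), Creb3l3 (0.67 ± 0.25, 0.595) and Agpat9 (-0.49 ± 0.21, 0.637).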

How the data were processed

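The labels name SMART-Seq2 as the library method and also a droplet kit of 10X Genomics. Bowtie, TopHat and RSEM are named in the submitters' processing notes; versions and genome build are not given in the sources used here. TPM values per gene and cell were deposited, which sum to 999999.17 to 1000000.78 per cell, so the depth of a cell is unknown. Every column was matched to a library (0 left over), 0 columns were duplicates, no cell was removed and no doublet caller was run. Cell types are the authors'.

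Mean TPM over cells was taken per animal and cell type and transformed as log2(TPM + 1). The filter on low values was a mean of 10 TPM or more and a value above 0 in 10% of cells or more. The genotypes were compared with limma 3.58.1 (eBayes with an intensity trend, two-sided, R 4.3.3); a fold on this scale understates the change of low genes. SEs and p-values rest on the spread of 2 samples per genotype, which limma draws towards a trend fitted over all genes kept. The procedure was run on simulated data with known changes. Their cells were drawn at random from all cells of a type, without regard to animal or run. They therefore do not show how it behaves with differences between animals or runs. Levels, onset and correlations are descriptions (Python 3.11.15). Named genes were the 9 members, Atg16l2, of the pathway list those passing a test or the 3 with the smallest p, and the 6 most like the members, of which 1 is not reported here. Other pathway genes and the genes of the marker, region and position lists were named after their values were seen. The members and lists were chosen with earlier results of these data known. Gpat3 and Gpat4 are listed under their older symbols Agpat9 and Agpat6. RefSeq gene neighbours and promoters are of GRCm38.p6. Alternatives were other pseudocounts, filters, averages, scalings, runs, cells and animals, and a replicate block.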

Additional observations from a re-analysis of the deposited data

Results flagged for a closer look

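In 5 of the 9 genes both KO animals lay above both WT animals in 1 or more cell types and below them in others. Apoa1 differed by 1.03 (log2, KO minus WT) in late progenitors and by -0.90 in Enterocyte, -0.38 in Stem and -0.54 in Goblet cells. Apoa4 differed by 0.84 in late progenitors and by -0.53 in Enterocyte cells. Mogat2 differed by 0.39 in late and 0.31 in early progenitors and by -0.41 in Enterocyte cells. Dgat1 differed by 0.15 in late progenitors and 0.41 in TA cells and by -0.63 in Goblet cells. Dgat2 differed by 1.26 in Stem cells and by -0.26 in Enterocyte, -0.44 in late progenitor, -0.69 in early progenitor and -0.55 in Goblet cells. Among all 7309 genes kept in 2 or more of the 6 cell types, 26.7% lay above in some types and below in others in the same way. These pairs of cell types were not tested against each other. The limma F test over all 6 types passed for none of the 9 genes, with a smallest adjusted p of 0.584.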

How the results depend on the processing

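None of the 9 genes passed in limma in the average or in early progenitors under any of the 20 alternatives. In Enterocyte cells the count of 0 became 2 (Apoa1 and Apoc3) with a replicate block, 1 with a crossed pairing chosen after the data were seen, 1 without the run 1 cells of KO M2 (Apoa1) and 0 to 1 with 1 animal left out. In late progenitors it was 0 to 1 with 1 animal left out, and for the step from Stem to Enterocyte it was 1 with the replicate block. The labels do not say whether WT and KO replicates of the same number share anything else. Deviations of WT M1 and KO M1 from their group means correlated at -0.133 over 6714 genes, which cannot settle it. Genes passing ranged from 0 to 44 in the average, 0 to 55 in Enterocyte cells, 0% to 2.24% of genes in late progenitors, 0 to 6 in early progenitors and 0 to 92 for the step. At 50% of the Enterocyte level, 1 gene in place of 5 was reached by early progenitors.

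Of 180 member differences in Enterocyte cells 21 changed sign, as did 10 in late progenitors and 25 in the average, and the causes were not tested. In Enterocyte cells, with log2 values averaged over cells, Apoa4 was 0.14, Apob 0.087 and Apoc3 0.16. With run 1 alone Apob was 0.62 and Mttp 0.28; with run 2 alone Apoa4 was 0.60, Dgat1 0.052 and Dgat2 0.054. With run as a covariate Apoa4 was 0.20, Apob 0.26 and Mttp 0.085; in cells with at least 5000 genes they were 0.15, 0.013 and 0.032; with quantile normalization Apob was 0.044 and Mttp 0.084. With 1 animal left out Apob ran from -0.23 to 0.17, Dgat1 from -0.48 to 0.084 and Mttp from -0.15 to 0.14. In late progenitors Apoc3 was 0.20 with log2 averages, 1.89 in run 2 and 0.58 with run as a covariate, and ran from -0.69 to 0.36 with 1 animal left out. Run 2 alone gave Dgat1 -0.26, Mogat2 -0.24 and Mttp -0.24, run 1 alone Dgat2 0.17, and without the run 1 cells of KO M2 Mttp was -0.20.

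In the average, run 1 alone gave Apoa1 0.040, Dgat2 0.19 and Mogat2 0.39, and run 2 alone Apoc2 0.24, Apoc3 0.22, Dgat1 0.049 and Mogat2 0.038. Log2 averages gave Apoa4 -0.0090 and Dgat1 0.033, quantile normalization Apoa4 -0.028, and the run covariate Dgat2 0.0032 and Mogat2 0.21. Leaving out the highest cell gave Apoa4 -0.018, Dgat2 0.0060 and Mogat2 0.045, cells with at least 5000 genes Dgat2 0.0050, and leaving out the run 1 cells of KO M2 Apoa4 -0.060. With 1 animal left out Apoa1 ran from -0.30 to 0.12, Apoa4 from -0.11 to 0.15, Dgat1 from -0.16 to 0.058, Dgat2 from -0.21 to 0.11 and Mogat2 from -0.44 to 0.37. Depth is unknown, so a value of 0 TPM sets no limit on a gene's level.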
